A study of Mus musculus with 10 samples.

Results

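Ly6a, Ly6c1 and Ly6e, 3 of the 26504 genes with a UMI (a unique molecular identifier, which marks 1 captured RNA molecule) in this series, were followed through single-cell RNA sequencing of endothelial cells (ECs) from mouse femur and tibia. The cells were defined without the counts of these 3 genes, which were chosen with earlier results of these data known. ECs were sorted as nuclear GFP and membrane tdTomato double-positive cells from C57BL/6 Cdh5-mTnG reporter mice, in which the pan-endothelial Cdh5 gene drives both fluorescent proteins, after collagenase digestion and depletion of lineage-positive blood cells. 10 libraries, 2 in each of 5 groups, were prepared with the 10x Chromium 3′ chemistry. The groups were juvenile (3 weeks, males and females), adult (12 weeks), aged (75 weeks), parathyroid hormone (PTH) treated and alendronate treated (both 12 weeks), and all groups but the juvenile one were female. PTH is an anabolic bone hormone and alendronate is a bisphosphonate that inhibits bone resorption. Every group carried the reporter, the labels name no treatment for the adult libraries, and sex and age cannot be told apart in the juvenile group. The study's methods describe 1 single-cell experiment on pooled animals for each group. The p-values here therefore measure the spread between 2 libraries of a group and not the spread between mice. In every group, age or treatment and the preparation of that group cannot be told apart.

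The Ly6 genes encode small cysteine-rich proteins that are held at the cell surface by a glycosylphosphatidylinositol (GPI) anchor and that share the fold of the urokinase receptor, which gives the family its name, Ly6/uPAR. Ly6a encodes stem cell antigen 1 (Sca-1), best known as a surface marker of haematopoietic stem cells and also used to separate arterial from sinusoidal endothelium in the bone marrow. Ly6c1 encodes a Ly6C antigen that capillary and arterial ECs carry, and Ly6e encodes a broadly expressed member known for its part in virus entry. Interferons are known to raise Ly6a and Ly6e in many cell types.

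Members were measured in 45070 of 47466 cell barcodes, which held 500 to 6000 genes, under 25% mitochondrial UMIs and at least 2 UMIs of Cdh5, Pecam1, Egfl7 and Kdr together. 4 endothelial types were set by marker UMIs. These were 14787 sinusoidal (type L, bmEC) cells by Stab2, a scavenger receptor of sinusoids, 4413 arterial cells (aECs) by the connexin Gja4, 7807 metaphyseal (type H, mpEC) cells by Ramp3 and Aplnr, and 1915 type R cells (rECs) by Timp4 and Aqp7. A further 8250 cells passed more than 1 gate and 7898 passed none, and both entered only the sums over all gated cells. Of the former, 6220 (75.4%) passed the sinusoidal and metaphyseal gates and no other. No doublet caller was run, so doublets can sit among the cells of more than 1 gate. The gates were checked on other markers: all 8 sinusoidal and all 8 arterial markers were highest in their own gate in 10 of 10 libraries, and of 7 type R markers 6 were, with Fabp4 highest there in 9. The metaphyseal gate was weaker. Apln and Piezo2 were highest there in 10 libraries, Lamb1 in 9 and Col4a1 in 8, but Esm1 in 3 and Adm in 1. The type R check markers are not confined to their gate. They summed to a median of 19689.5 CPM in sinusoidal, 9886 in arterial, 9207 in metaphyseal and 33800 CPM in type R cells. The gate genes Timp4 and Aqp7 gave 4.92 CPM in sinusoidal and 2260 CPM in type R cells. That contrast was set by the gates, since a sinusoidal cell could hold at most 1 UMI of them and a type R cell needed at least 2. Whether sums of check markers in another gate are RNA of that other type was not tested. Libraries held 10653583 to 28419323 UMIs, 2163 to 7496 gated cells and medians of 3116 to 5088 UMIs per gated cell, and pairs of libraries shared 10 to 88 cell barcodes, but pairs with an aged library 3 or 4. The aged libraries stood apart in other ways too. They held UMIs of 22735 and 22736 genes, the other libraries of 19039 to 20912, and 267 and 265 genes whose symbols begin with U had UMIs in them and in no other library, and were left out of every sum and test. The chi-square of the counts over genes, per degree of freedom, was 141 to 249 between an aged library and one of another group and 21.5 to 88.7 between other libraries of unlike groups. Between the 2 libraries of a group that chi-square was 2.13 to 7.99. Age and a difference in how the aged libraries were made or processed cannot be told apart. In the other groups too, age or treatment and the preparation of the group cannot be told apart. Type R was rare in the juvenile libraries (41 and 24 cells) and in PTH library 1 (27 cells), where the members rest on 90 to 808 UMIs. The haematopoietic marker list (13 genes) summed to 8827 and 3692 CPM over all gated cells in aged libraries 1 and 2, against 592 and 792 CPM in the adult and 70.1 and 59.95 CPM in the juvenile ones. In cells that passed no gate, the median over 10 libraries was 3129 CPM for this list and 8702 CPM for the erythroid list. Medians in the 4 types were 62.35 to 194 CPM and 220 to 705 CPM.

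All 3 members lie on mouse chromosome 15 (mm10/GRCm38, GENCODE M21 annotation): Ly6e at 74955051 to 74959905 on the plus strand, Ly6a at 74994877 to 74998031 and Ly6c1 at 75044018 to 75048830, both on the minus strand. Each is protein coding, and no exon of another gene overlaps their exons. Ly6c1 has a near copy, Ly6c2 (75108158 to 75111970, minus strand), which encodes the Ly6C of monocytes. Over the last 400 bases of the transcripts, where 3′ libraries are read, 65 of 341 windows of 60 bases (19.1%) were identical in Ly6c1 and Ly6c2. How the counting treated reads from these is not given in the sources used here, so the levels of both genes are uncertain to that extent. Ly6a and Ly6e shared no such window. The start regions of this pair are shown because Ly6c1 was called between the endothelial types and its near copy Ly6c2 was not, and come from RefSeq (GRCm38.p6); start regions of Ly6a and Ly6e were not used here. Each runs from 250 bases before to 50 bases after the start of the gene, Ly6c1 at chr15:75048788-75049087 and Ly6c2 at chr15:75111922-75112221, both on the minus strand, with the motif TATAAA in capitals.
Ly6c1: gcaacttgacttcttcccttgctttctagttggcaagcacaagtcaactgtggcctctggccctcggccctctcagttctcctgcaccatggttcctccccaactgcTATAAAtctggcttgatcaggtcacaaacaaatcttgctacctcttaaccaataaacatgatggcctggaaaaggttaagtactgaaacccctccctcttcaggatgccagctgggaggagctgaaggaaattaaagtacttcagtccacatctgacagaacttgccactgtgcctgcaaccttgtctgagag
Ly6c2: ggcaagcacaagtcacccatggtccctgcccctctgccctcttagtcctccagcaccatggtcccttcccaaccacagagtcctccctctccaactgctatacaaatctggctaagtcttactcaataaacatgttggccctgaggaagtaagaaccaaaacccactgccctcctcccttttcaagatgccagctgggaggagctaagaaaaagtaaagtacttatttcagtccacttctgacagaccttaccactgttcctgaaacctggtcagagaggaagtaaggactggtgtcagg

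Aligned over their length, 214 positions were identical, 46 differed and 80 were gaps, so that 62.9% were identical with gaps counted. Sequence that opens the Ly6c2 window lies further inside that of Ly6c1, so the windows are offset. TATAAA occurred once in Ly6c1, its first letter 143 bases before the gene start, and not in Ly6c2, searched on both strands, and 13.6% of 32851 start regions of the same length hold it. Neither sequence held the letters of the gamma-activated site (TTCNNNGAA, in 8.30% of all start regions), the core of the interferon-stimulated response element (3.44%), the ETS core (CCGGAA, 14.9%) or the GATA core (AGATAA, 11.2%). These matches describe letters in 1 window only.

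The first comparison asked in which vessels of the bone the members are expressed. Ly6a and Ly6c1 were lowest in sinusoidal cells in all 10 libraries, high in arterial and type R cells, and intermediate in metaphyseal cells, whereas Ly6e was at a similar level in all 4 types. Levels are CPM, the summed UMIs of the cells of a type in a library scaled by its total UMIs and its TMM factor. Differences between types come from the quasi-likelihood F-test of edgeR in which each library formed a block, and a gene was called at an adjusted p under 0.05 and an absolute log2 fold change over 1. Sca-1 (Ly6a) ran from 232 to 976 CPM, with a median of 712 CPM, over 10 libraries in sinusoidal cells and from 795 to 2721 CPM, with a median of 1781 CPM, in metaphyseal cells. In arterial cells it ran from 3183 to 4954 CPM, with a median of 3764 CPM, and in type R cells from 1286 to 5423 CPM, with a median of 3343 CPM. The sinusoidal range did not overlap the arterial or the type R range. Within a library the arterial level was 4.28 to 16.4 times the sinusoidal one, and the type R level 4.29 to 7.48 times. The highest type was arterial in 7 libraries and type R in 3, which were aged library 2 and both alendronate libraries. Against the average of the other 3 types, the log2 fold change of Ly6a in sinusoidal cells was -2.16 (SE 0.118, edgeR adjusted p = 7.86e-19). It was 1.47 (SE 0.0981, adjusted p = 8.13e-16) in arterial and 1.01 (SE 0.101, adjusted p = 7.80e-11) in type R cells by edgeR. The metaphyseal difference of -0.32 (SE 0.105, adjusted p = 0.0143) stayed under the fold threshold.

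**Figure D1:**
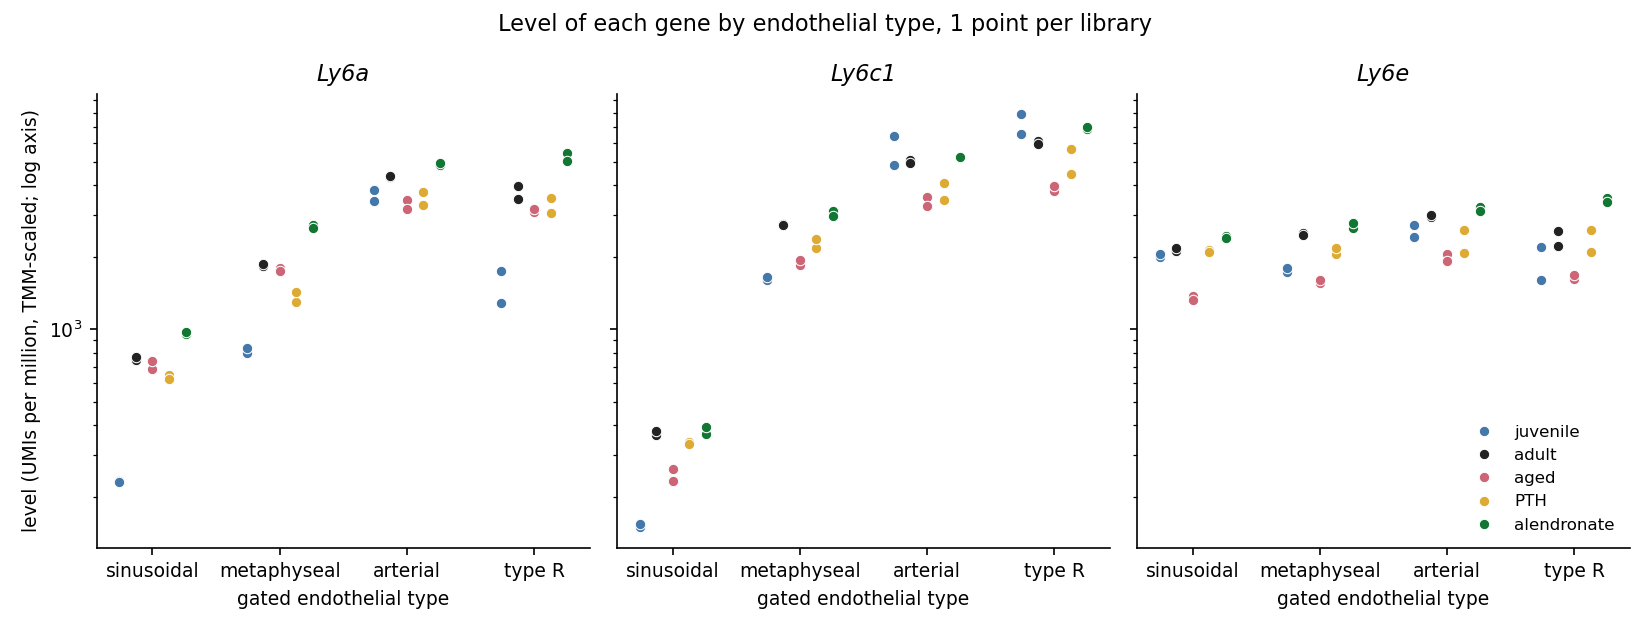
Level of Ly6a, Ly6c1 and Ly6e (CPM scaled by TMM factors, log axis) in the summed sinusoidal, arterial, metaphyseal and type R cells of each of 10 libraries, 1 point per library, coloured by group. Ly6a and Ly6c1 are lowest in the sinusoidal cells of every library, and the Ly6e points of the 4 types overlap.

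In each of 10 libraries Ly6c1 differed more than Ly6a between sinusoidal cells and each other type, and less between arterial and metaphyseal cells. It ran from 150.3 to 391 CPM, with a median of 338 CPM, in sinusoidal cells and from 1606 to 3111 CPM, with a median of 2281 CPM, in metaphyseal cells. Arterial cells ran from 3277 to 6376 CPM, with a median of 4885 CPM, and type R cells from 3778 to 7880.0 CPM, with a median of 6031 CPM. Here the sinusoidal range overlapped that of no other type, and type R was the highest type in 10 of 10 libraries. Cells in more than 1 gate are not among these types. The 6220 cells in the sinusoidal and metaphyseal gates lay between those types, pooled over libraries and without TMM factors. They held 819 CPM of Ly6a and 838 CPM of Ly6c1. Library means were 626 and 279 CPM in sinusoidal and 1752 and 2382 CPM in metaphyseal cells. The arterial level of Ly6c1 was 10.1 to 41.2 times the sinusoidal one within a library, and its type R level 13.04 to 52.4 times. The log2 fold change of Ly6c1 was -3.75 (SE 0.139, edgeR adjusted p = 3.37e-24) in sinusoidal, 1.55 (SE 0.102, adjusted p = 4.71e-16) in arterial and 1.98 (SE 0.102, adjusted p = 5.02e-19) in type R cells. The metaphyseal difference of 0.21 (SE 0.107, adjusted p = 0.121) did not pass edgeR's test. Ly6e ran from 1332 to 2446 CPM, with a median of 2119.5 CPM, in sinusoidal cells and from 1921 to 3239 CPM, with a median of 2653 CPM, in arterial cells. It ran from 1556 to 2778 CPM, with a median of 2118 CPM, in metaphyseal cells and from 1614 to 3514 CPM, with a median of 2217 CPM, in type R cells. These ranges overlapped, and the arterial level was 0.973 to 1.49 times the sinusoidal one within a library. Its log2 differences were -0.22 (SE 0.0583, edgeR adjusted p = 0.00115) for sinusoidal and 0.28 (SE 0.0568, adjusted p = 8.85e-05) for arterial cells, both under the fold threshold. Of the 3 members, 2 were therefore called in sinusoidal cells, where 16.7% of 11055 genes tested were, and 2 in arterial cells (10.8% of genes). None was called in metaphyseal cells (6.37%; by edgeR 2 members had an unadjusted p under 0.05 there, and neither edgeR nor DESeq2 called one), and 2 were called in type R cells (12.9%). The type R call of Ly6a lay at the fold threshold: leaving out aged library 1, PTH library 1, PTH library 2 or alendronate library 1 brought its log2 fold change to between 0.99 and 1.00. It was also lost with no filter on low counts (0.96) and with cells holding RNA of other types left out (0.997). The latter setting left out cells with a Ptprc (CD45) UMI, with over 1% erythroid UMIs or in the top 5% by UMIs. It used no other blood cell marker and no marker of another endothelial type.

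Neighbours in the order of levels were compared as pairs in the same model. Arterial and type R cells stood closest, with arterial minus type R log2 differences of 0.34 (SE 0.129, adjusted p = 0.0436) for Ly6a and -0.33 (SE 0.134, adjusted p = 0.0631) for Ly6c1, neither past the fold threshold. Neither edgeR nor DESeq2 called a member between them, where edgeR called 10.7% of genes and gave an unadjusted p under 0.05 for 3 of 3 members. Metaphyseal cells were below type R cells for Ly6c1, with a difference of -1.33 (SE 0.136, adjusted p = 1.82e-10), and the Ly6a difference of -0.9998 (SE 0.129) lay just under the fold threshold, so that 1 member was called (13.7% of genes). Leaving out any 1 of 6 libraries (juvenile 2, adult 2, aged 1 or 2, alendronate 1 or 2) moved that Ly6a difference to between -1.02 and -1.01 and past the threshold. DESeq2, its size factors, stricter type gates (3 marker UMIs) and cells thinned to 2000 UMIs before gating did so too (-1.15 to -1.01). The stricter gates also allowed no UMI of another gate, Ramp3 and Aplnr in type R cells excepted. Metaphyseal cells were below arterial cells for both genes, with arterial minus metaphyseal differences of 1.34 (SE 0.129, adjusted p = 2.63e-11) for Ly6a and 1.00 (SE 0.134, adjusted p = 6.13e-08) for Ly6c1 (11.5% of genes called by edgeR). Without juvenile library 1 or 2 the latter was 0.94 or 0.89, under the fold threshold. It was also under it with DESeq2, its size factors, no filter, plain totals in place of TMM factors or cells holding RNA of other types left out (0.97 to 0.99). Sinusoidal cells were in turn below metaphyseal cells, with differences of -1.38 (SE 0.128, adjusted p = 7.07e-12) for Ly6a and -2.97 (SE 0.143, adjusted p = 4.42e-20) for Ly6c1 (12.9% of genes called). Sinusoidal cells differed from arterial cells by -2.72 for Ly6a and -3.97 for Ly6c1 (19.6% of genes called), and from type R cells by -2.38 and -4.30 (21.6%), with 2 of 3 members called in each. The order for Sca-1 was thus sinusoidal, metaphyseal, then type R and arterial, and for Ly6c1 sinusoidal, metaphyseal, then arterial and type R, with the last pair in each case not called apart.

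The same order was seen in single cells. To compare cells at 1 depth, each was thinned to 1000 UMIs, which left out 37 of 5535 juvenile, 213 of 7069 adult, 22 of 2687 aged, 205 of 6212 PTH and 271 of 7419 alendronate cells of the 4 types for being shallower. The median library then had a Ly6a UMI in 41.5% (lowest 16.9%, highest 52.5%) of sinusoidal, 67.0% (lowest 44.9%, highest 85.1%) of metaphyseal, 90.3% (lowest 75.6%, highest 98.2%) of type R and 93.2% (lowest 86.2%, highest 96.5%) of arterial cells. For Ly6c1 the shares were 24.1% (lowest 9.55%, highest 25.4%), 80.7% (lowest 66.3%, highest 86.7%), 98.7% (lowest 91.5%, highest every cell) and 95.2% (lowest 91.2%, highest 97.9%) in the same order of types. For both genes the lowest share in arterial cells lay above the highest share in sinusoidal cells. Ly6e was found in 82.6% (lowest 64.5%, highest 87.0%) of sinusoidal and 90.9% (lowest 79.4%, highest 94.9%) of arterial cells. Free RNA can put UMIs into cells that do not express a gene. For comparison, blood cells with no endothelial marker UMI and at least 2 UMIs of their own markers were read. That choice leaves out blood cells that took up the endothelial markers, so these values can lie below the true scale of free RNA. Lying above them does not by itself set sinusoidal cells apart from free RNA. Of 318 haematopoietic cells (median 3065 UMIs) 12.3% had a Ly6a UMI, 7.55% a Ly6c1 UMI and 51.6% a Ly6e UMI, and of 206 erythroid cells (median 5812 UMIs) 6.31%, 5.34% and 25.2% did, although some blood cells express these genes themselves. The sinusoidal shares, at median depths of 3277 to 6750 UMIs per library, lay above these values in every library, by the least for Ly6c1 in juvenile library 1, with 9.55% (95% Clopper-Pearson interval 8.30 to 10.9%, counting error only). In both juvenile libraries the intervals of the sinusoidal shares of Ly6a (15.3 to 18.6% and 15.4 to 18.9%) and Ly6c1 (the other library 9.43 to 12.4%) overlapped those of the haematopoietic cells (8.87 to 16.4% for Ly6a and 4.90 to 11.02% for Ly6c1). Most of these blood cells came from other groups, since 22 of 326 haematopoietic and 30 of 211 erythroid cells were juvenile. Those 52 juvenile cells held 6 Ly6a and 6 Ly6c1 UMIs, 26.5 plain CPM each (95% Poisson interval 9.74 to 57.8 CPM, counting error only), against 212 and 210.2 CPM of Ly6a and 136 and 140.0 CPM of Ly6c1 in the sinusoidal cells of the same libraries. The sinusoidal levels also lay above the upper bound of their own group's blood cells for each member in the other groups, except for Ly6c1 under PTH, at 310.1 and 305 CPM against 200.02 CPM (109 to 336 CPM, 14 UMIs in 18 cells).

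**Figure D2:**
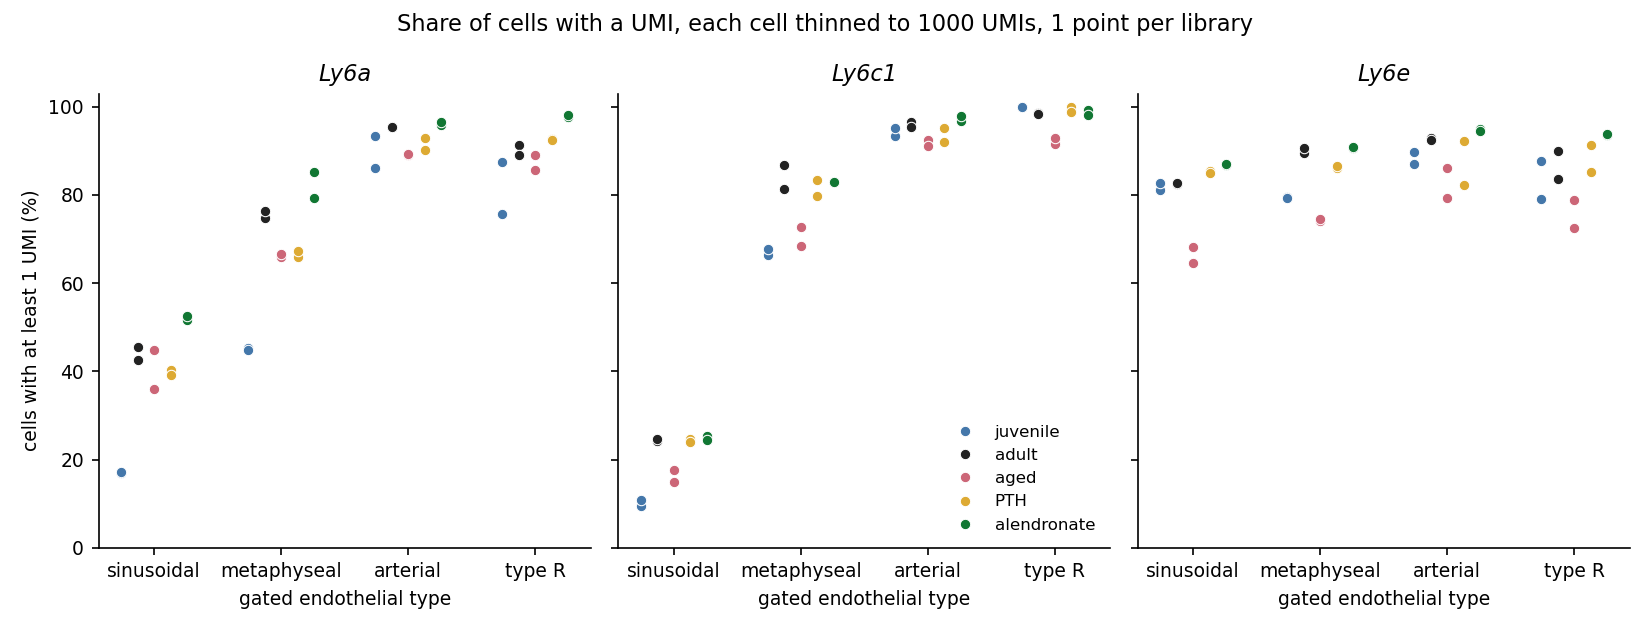
Percentage of cells of each type with at least 1 UMI of Ly6a, Ly6c1 or Ly6e after each cell was thinned to 1000 UMIs, 1 point per library, coloured by group. Sinusoidal cells have the lowest shares of Ly6a and Ly6c1, with the juvenile libraries lowest of all, and the shares of Ly6e lie close together across types.

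The chance that a random arterial cell held more Ly6a UMIs than a random sinusoidal cell of the same library, the area under the ROC curve with ties split, was 0.841 to 0.938 over 10 libraries, and for Ly6c1 it was 0.927 to 0.968. Type R against sinusoidal cells gave 0.827 to 0.907 for Ly6a and 0.930 to 0.997 for Ly6c1. Both genes thus separated most single cells of these types, and Ly6e separated fewer, with 0.528 to 0.688 for arterial against sinusoidal cells. Arterial against type R cells gave 0.494 to 0.686 for Ly6a and 0.282 to 0.460 for Ly6c1, values below 0.5 meaning more UMIs in type R cells. Ly6a and Ly6c1 UMIs were found together in 82.8 to 94.7% of arterial cells, 75.6 to 96.8% of type R cells, 35.1 to 73.9% of metaphyseal cells and 2.56 to 14.9% of sinusoidal cells. Neither gene had a UMI in 37.4 to 76.1% of sinusoidal cells, against 0.293 to 4.45% of arterial cells. Across cells of 1 library and type, Spearman's rho of the thinned counts of Ly6a and Ly6c1 was 0.31 to 0.46 in arterial, 0.32 to 0.51 in metaphyseal, 0.05 to 0.18 in sinusoidal and -0.03 to 0.41 in type R cells. This describes cells that share their library and its free RNA.

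Age was compared next, with the adult libraries as the shared control of all comparisons against them. In juvenile bone Sca-1 was lower than in adult bone in every endothelial type, Ly6c1 was lower in sinusoidal and metaphyseal cells but not in arterial or type R cells, and over all gated cells Ly6e differed least. Over all gated cells Ly6a was at 574 and 595 CPM in the juvenile and 1509 and 1495 CPM in the adult libraries. Ly6c1 was at 868 and 937 against 1674 and 1614 CPM, and Ly6e at 1949 and 2016 against 2308 and 2315 CPM. The juvenile libraries were the lower pair for each gene, without overlap. How many of all genes set 2 libraries apart from 2 in this way was not counted, here or in the later comparisons. The log2 fold changes were -1.36 (SE 0.0499, adjusted p = 4.49e-10) for Ly6a, -0.87 (SE 0.0537, adjusted p = 5.55e-08) for Ly6c1 and -0.22 (SE 0.0363, adjusted p = 0.000297) for Ly6e by edgeR. The call here needed an adjusted p under 0.05 alone, and 3 of 3 members were called, where 41.2% of 16084 genes were. In such sums a different mix of types and a different level per cell cannot be told apart, and the types were therefore tested one by one. Within types, juvenile Ly6a was at 233 and 232 CPM in sinusoidal, 3418 and 3808 in arterial, 795 and 834 in metaphyseal and 1746 and 1286 in type R cells. Adult Ly6a was at 745 and 766 CPM in sinusoidal, 4331 and 4376 in arterial, 1833 and 1878 in metaphyseal and 3959 and 3498 in type R cells. The juvenile pair was below the adult pair in each type, least so in arterial cells. The log2 fold changes were -1.68 (SE 0.0484, adjusted p = 5.88e-16) in sinusoidal cells (32.4% of genes called) and -1.18 (SE 0.0560, adjusted p = 1.86e-12) in metaphyseal cells (21.4%), by edgeR. They were -1.17 (SE 0.111, adjusted p = 1.62e-07) in type R cells (2.45%) and -0.26 (SE 0.0736, adjusted p = 0.0308) in arterial cells (7.34%), all by edgeR. The arterial call ended when juvenile library 1, adult library 1 or 2, or alendronate library 1 or 2 was left out, with log2 fold changes of -0.28 to -0.20 and adjusted p from edgeR of 0.0546 to 0.227. It also ended with DESeq2 (-0.24) and with the replicate number as a block (-0.26). Check markers of other gates, which are not confined to those gates, and red cell markers moved with the juvenile group. The 6 metaphyseal check markers summed to 2447 to 2621 CPM in juvenile type R cells, against 694 to 979 CPM in adult ones. In arterial cells they summed to 1864 to 2531 CPM against 806 to 831 CPM. Metaphyseal cells themselves ran from 1599 to 2472 CPM over all libraries, so this list does not set the types apart in juvenile bone. The 7 type R check markers summed to 7458 to 8223 CPM in juvenile metaphyseal cells, against 11611 to 12007 CPM in adult ones. They summed to 20594 to 21645 against 24444 to 24918 CPM in sinusoidal and to 13287 to 16270 against 9777 to 9996 CPM in arterial cells. In sinusoidal cells the metaphyseal check markers gave 608 to 632 against 271 to 279 CPM. The arterial check markers gave 98 to 107 against 152 to 165 CPM there. The erythroid list reached 3998 CPM in metaphyseal and 3332 CPM in sinusoidal cells of a juvenile library, against at most 281 and 911 CPM in the adult libraries. Their part in the juvenile values of Ly6a, Ly6c1 and Ly6e was not tested.

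Ly6c1, the capillary and arterial antigen, was lower in some juvenile types and not in others. Juvenile Ly6c1 was at 150.3 and 155 CPM in sinusoidal, 4831 and 6376 in arterial, 1606 and 1651 in metaphyseal and 7880.0 and 6528 in type R cells. Adult Ly6c1 was at 364 and 378 CPM in sinusoidal, 5059 and 4938 in arterial, 2761 and 2717 in metaphyseal and 6115 and 5947 in type R cells. It fell by 1.27 (SE 0.0590, adjusted p = 1.50e-12) on the log2 scale in sinusoidal and by 0.74 (SE 0.0524, adjusted p = 1.08e-09) in metaphyseal cells by edgeR. It rose by 0.37 (SE 0.0889, adjusted p = 0.0192) in type R cells, and gave 0.17 (SE 0.0934, adjusted p = 0.316) in arterial cells, by edgeR. In arterial cells the 2 juvenile libraries were far apart, and without juvenile library 1 the change was 0.35 (edgeR adjusted p = 0.0226), without juvenile library 2 it was -0.04. It passed with stricter type gates as well (0.30). The type R call rests on 41 and 24 juvenile cells and ended without juvenile library 1 (0.21, adjusted p = 0.489 by edgeR), adult library 1 (0.33, 0.285), adult library 2 (0.29, 0.366) or either alendronate library (0.38 and 0.36, 0.0610 and 0.0901), and with the replicate number as a block (0.38). Juvenile Ly6e was at 1996 and 2068 CPM in sinusoidal, 2426 and 2718 in arterial, 1728 and 1805 in metaphyseal and 2214 and 1614 in type R cells. Adult Ly6e was at 2129 and 2180.2 CPM in sinusoidal, 2939.8 and 3009 in arterial, 2515 and 2483 in metaphyseal and 2573 and 2221 in type R cells. Ly6e fell in metaphyseal cells, by 0.49 (SE 0.0508, adjusted p = 3.02e-07). The changes of -0.07, -0.20 and -0.20 in sinusoidal, arterial and type R cells did not pass edgeR's test. The arterial one passed without PTH library 1 or 2 (-0.21 and -0.20) and with no filter on low counts (-0.23). The sinusoidal one passed with thinning before gating (-0.14), with plain totals (-0.10) and with cells holding RNA of other types left out (-0.10). The effect of age in 1 type was then tested against the mean effect in the other 3, in a model over all type sums. The juvenile change of Ly6a in sinusoidal cells, less that in the others, was -0.78 (SE 0.0865, adjusted p = 7.71e-08), with 2.34% of 12868 genes called, and in arterial cells it was 1.099 (SE 0.0863, adjusted p = 2.43e-11), with 0.738% of genes called. For Ly6c1 the differences were -1.17 (SE 0.0965, adjusted p = 8.21e-11) in sinusoidal and 0.73 (SE 0.0938, adjusted p = 3.66e-06) in arterial cells by edgeR. They were -0.47 (SE 0.0931, adjusted p = 0.00209) in metaphyseal (2% of genes called) and 0.91 (SE 0.0996, adjusted p = 3.80e-07) in type R cells (0.614%), where the median of all genes was -0.20. The metaphyseal one ended without adult library 1 (-0.46, edgeR adjusted p = 0.0583). For Ly6e the metaphyseal difference of -0.31 (SE 0.0898, adjusted p = 0.0652) was not called by edgeR. It passed with DESeq2, its size factors, no filter, stricter type or endothelial gates, plain totals, cells holding RNA of other types left out, or without an aged or a PTH library (-0.44 to -0.28), and the sinusoidal one passed with no filter (0.24). The contrast between arterial and sinusoidal cells was wider in juvenile bone for 2 members, where the arterial level of Ly6a was 14.6 and 16.4 times the sinusoidal one in the juvenile libraries and 4.28 to 5.96 times in the other 8. For Ly6c1 it was 32.1 and 41.2 times against 10.1 to 14.2 times, and for Ly6e 1.22 and 1.31 times, within the 0.973 to 1.49 times of the others. The type R level of Ly6a was 7.48 and 5.53 times the sinusoidal one, against 4.29 to 5.66 times, so that juvenile library 2 lay within the range of the others, and that of Ly6c1 was 52.4 and 42.2 times against 13.04 to 18.7 times. At 1000 UMIs per cell, 16.9 and 17.1% of juvenile sinusoidal cells had a Ly6a UMI against 42.7 and 45.5% of adult ones, and without thinning 43.9 and 45.0% against 75.8 and 77.0%.

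**Figure D3:**
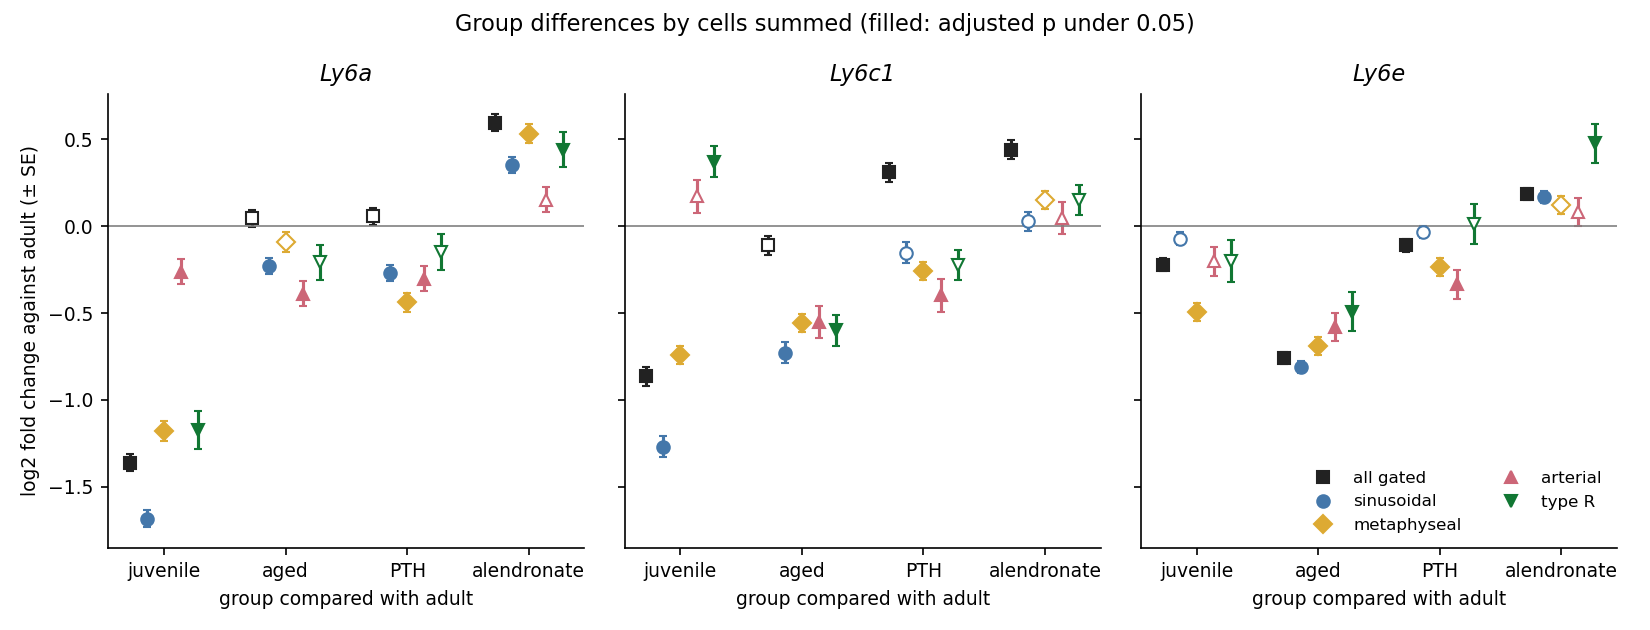
Log2 fold change (edgeR, with standard errors as bars) of Ly6a, Ly6c1 and Ly6e in juvenile, aged, PTH and alendronate bone against adult bone, over all gated cells and within each of the 4 types. Filled points passed an adjusted p of 0.05. Juvenile Ly6a lies furthest below 0, at -1.68 in sinusoidal cells.

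In the aged libraries, whose age and making or processing cannot be told apart, Ly6e and Ly6c1 were lower than in adult bone within each endothelial type, and Sca-1 was called lower in arterial and sinusoidal cells, the latter with a sign that turned under plain totals. Ly6e was at 1370.0 and 1362 CPM over all gated cells of the aged libraries, against 2308 and 2315 CPM in the adult ones, a log2 fold change of -0.76 (SE 0.0365, adjusted p = 4.81e-10) by edgeR. Ly6a, at 1542 and 1558 CPM, gave 0.05 (SE 0.0488, adjusted p = 0.417), and Ly6c1, at 1534 and 1512 CPM, gave -0.11 (SE 0.0532, adjusted p = 0.0780), so that 1 of 3 members was called, where 72.8% of genes were. The Ly6c1 value passed the test without juvenile library 1 or 2, adult library 2 or PTH library 1 or 2 (-0.16 to -0.10) and with no filter on low counts (-0.20), and its sign turned with thinning before gating (0.0873). That of Ly6a passed with thinning (0.15) and turned with no filter (-0.0482). Within types, aged Ly6e was at 1383 and 1332 CPM in sinusoidal, 2062 and 1921 in arterial, 1556 and 1615 in metaphyseal and 1626 and 1685 in type R cells, below the adult pair in each. Its log2 fold changes by edgeR were -0.81 (SE 0.0364, adjusted p = 8.83e-14) in sinusoidal, -0.58 (SE 0.0830, adjusted p = 7.46e-06) in arterial, -0.69 (SE 0.0512, adjusted p = 4.23e-10) in metaphyseal and -0.49 (SE 0.113, adjusted p = 0.00136) in type R cells. Aged Ly6c1 was at 261 and 233 CPM in sinusoidal, 3557 and 3277 in arterial, 1862 and 1946 in metaphyseal and 3778 and 3953 in type R cells, again below the adult pair in each. It fell in all 4 types too, with -0.73 (SE 0.0603, adjusted p = 1.54e-09) in sinusoidal, -0.55 (SE 0.0931, adjusted p = 5.34e-05) in arterial, -0.56 (SE 0.0525, adjusted p = 1.46e-08) in metaphyseal and -0.60 (SE 0.0872, adjusted p = 1.01e-05) in type R cells. Sca-1 gave -0.23 (SE 0.0472, adjusted p = 0.000275) in sinusoidal and -0.39 (SE 0.0728, adjusted p = 0.000159) in arterial cells, both called by edgeR. Its values of -0.09 in metaphyseal and -0.21 in type R cells did not pass. The metaphyseal one passed without PTH library 1 (-0.11), with thinning before gating (-0.50), with no filter (-0.15) and with cells holding RNA of other types left out (-0.16), and its sign turned with plain totals (0.0612). The type R one passed without a juvenile library (-0.24 and -0.22). The type R call of Ly6e ended without adult library 1 (-0.38, edgeR adjusted p = 0.0851). Of all genes, 63.1% were called in sinusoidal, 48.5% in arterial, 56.4% in metaphyseal and 40% in type R cells, a large background for these calls. With all libraries edgeR called no aged effect on a member different between types, where 14% of genes were called for sinusoidal, 3.26% for arterial, 1.13% for metaphyseal and 2.18% for type R cells. Of 12 such tests 2 had an unadjusted p under 0.05, both of Ly6a, and DESeq2 called that of Ly6a in arterial cells (-0.27, adjusted p = 0.0107). That one passed edgeR's test too with no filter, stricter type gates, plain totals, cells holding RNA of other types left out or without juvenile library 1 (-0.34 to -0.22), and that of Ly6a in sinusoidal cells with plain totals (0.32). With thinning before gating 5 passed, those of Ly6e in sinusoidal (-0.22) and Ly6c1 in metaphyseal cells (-0.35) and those of Ly6a, Ly6c1 and Ly6e in type R cells (0.36, 0.47 and 0.37). The aged values depend on the scaling. With plain totals in place of TMM factors, an alternative chosen after seeing the data, the median of all genes moved up by 0.36 over all gated cells, 0.39 in sinusoidal and 0.15 in metaphyseal cells. Sinusoidal Ly6a was then higher by 0.16 in place of lower by 0.23, and over all gated cells Ly6a was higher by 0.40 and Ly6c1 by 0.25. Ly6e stayed lower, by 0.40 over all gated cells and 0.42 in sinusoidal cells, and Ly6c1 by 0.34 in sinusoidal cells. Aged cells also held blood cell RNA, in amounts that differed between the 2 libraries. In type R cells there was a haematopoietic list sum of 16802 and 5874 CPM in aged libraries 1 and 2 against 52.9 and 71.8 CPM in adult type R cells. S100a9, a neutrophil gene, gave 7896 and 2850 CPM and Ptprc, the pan-leukocyte CD45, 18.2 and 25.9 CPM. The haematopoietic list summed to 11092 and 227 CPM in arterial, 1288 and 358 CPM in metaphyseal and 110.2 and 1636 CPM in sinusoidal cells of aged libraries 1 and 2, the adult libraries reaching 57.5, 347 and 655 CPM. The erythroid list summed to 361 and 21195 CPM in type R, 315 and 325 CPM in arterial, 321 and 6422 CPM in metaphyseal and 416 and 6325 CPM in sinusoidal cells of the same libraries, the adult ones reaching 231, 270.3, 281 and 911 CPM. The 7 type R check markers, which are not confined to their gate, summed to 15992 to 16565 CPM in aged sinusoidal cells, against 24444 to 24918 CPM in adult ones. In metaphyseal cells they summed to 9169 to 9246 against 11611 to 12007 CPM. The metaphyseal check markers gave 459 to 469 against 271 to 279 CPM in sinusoidal cells. The arterial ones gave 255 to 306 against 152 to 165 CPM in sinusoidal and 685 to 736 against 411 to 417 CPM in metaphyseal cells. The sinusoidal ones gave 205 to 209 against 340 to 461 CPM in type R cells. The part of these markers was not tested. The setting with cells holding RNA of other types left out used Ptprc, erythroid RNA and total UMIs, but not S100a9 or any endothelial marker. It kept 258 of 266 type R cells of aged library 1. No aged call of a member was lost with it in edgeR's test.

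Under PTH the members were lower than in adult bone within arterial and metaphyseal cells, while over all gated cells Ly6c1 was higher. PTH libraries 1 and 2 had 1899 and 2177 CPM of Ly6c1 over all gated cells, against 1674 and 1614 CPM in the adult libraries. Ly6a was at 1457 and 1669 CPM and Ly6e at 2058 and 2226 CPM, the adult libraries at 1509 and 1495 and 2308 and 2315 CPM. PTH Ly6a thus lay on either side of the adult pair. The log2 fold changes were 0.31 (SE 0.0532, adjusted p = 0.000768) for Ly6c1, 0.06 (SE 0.0488, adjusted p = 0.436) for Ly6a and -0.11 (SE 0.0362, adjusted p = 0.0406) for Ly6e by edgeR. Thus 2 of 3 members were called, where 25.9% of genes were. Ly6a followed the library: without PTH library 1 its change was 0.15 (edgeR adjusted p = 0.00217), and without PTH library 2 it was -0.05. The Ly6e call ended without adult library 1 or 2, PTH library 1 or alendronate library 1 or 2 (-0.11 to -0.05), and with no filter (-0.11), cells holding RNA of other types left out (-0.0987) or plain totals (-0.0644). Within types PTH Ly6c1 was at 340.4 and 335 CPM in sinusoidal, 3452 and 4072 in arterial, 2188 and 2374 in metaphyseal and 4439 and 5629.6 in type R cells. The estimated change was below 0 in each type, though that in type R cells turned with thinning before gating (0.15). Ly6c1 fell by 0.40 (SE 0.0930, adjusted p = 0.0167) in arterial and 0.26 (SE 0.0519, adjusted p = 0.00245) in metaphyseal cells by edgeR. It gave -0.15 (SE 0.0590, adjusted p = 0.157) in sinusoidal and -0.22 (SE 0.0879, adjusted p = 0.277) in type R cells by edgeR. No rise of Ly6c1 was called within a type. PTH Ly6a was at 645 and 624 CPM in sinusoidal, 3286 and 3720.4 in arterial, 1299 and 1436 in metaphyseal and 3040.4 and 3513 in type R cells. It fell by 0.44 (SE 0.0547, adjusted p = 1.70e-05) in metaphyseal, 0.30 (SE 0.0728, adjusted p = 0.0205) in arterial and 0.27 (SE 0.0474, adjusted p = 0.000964) in sinusoidal cells, and gave -0.15 in type R cells. Ly6e fell by 0.33 (SE 0.0828, adjusted p = 0.0255) in arterial and 0.24 (SE 0.0504, adjusted p = 0.00463) in metaphyseal cells, and the changes of -0.03 and 0.01 in sinusoidal and type R cells did not pass. All 3 members were thus called in arterial cells, where 3.45% of genes were, and in metaphyseal cells (6.64%). In sinusoidal cells 1 was called (6.06%), and none in type R cells (1.72%; 1 member had an unadjusted p under 0.05 by edgeR, and DESeq2 called none either). Without PTH library 2 the type R change of Ly6c1 passed (-0.41). The 3 arterial calls each ended without adult library 1, adult library 2 or PTH library 1, with log2 fold changes between -0.42 and -0.21, and the metaphyseal calls held whichever library was left out. That of Ly6e in arterial cells also ended with stricter type gates (-0.24), and that of Ly6c1 in metaphyseal cells with thinning before gating (-0.16). The 7 type R check markers summed to 4772 to 5494 CPM in PTH arterial cells, against 9777 to 9996 CPM in adult ones. They summed to 6332 to 6635 against 11611 to 12007 CPM in metaphyseal and 19048 to 20331 against 24444 to 24918 CPM in sinusoidal cells. The arterial check markers gave 198 to 226 against 152 to 165 CPM in sinusoidal cells. The sinusoidal ones gave 910 to 944 against 1327 to 1366 CPM in metaphyseal and 284 to 302 against 411 to 463 CPM in arterial cells. The metaphyseal ones gave 1021 to 1191 against 806 to 831 CPM in arterial cells. The part of these markers was not tested. With all libraries edgeR called no PTH effect on a member different between types, where 0.863% of genes were called for sinusoidal, 0.14% for arterial, 0.14% for metaphyseal and 0.505% for type R cells. There 3 of 12 tests had an unadjusted p under 0.05, and DESeq2 called none. That of Ly6e in arterial cells passed with no filter (-0.24), and with thinning before gating those of Ly6c1 in arterial (-0.34) and type R cells (0.40) did.

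Under alendronate Sca-1 was higher than in adult bone in sinusoidal, metaphyseal and type R cells. Over all gated cells Ly6a was at 2290.2 and 2253 CPM against 1509 and 1495 CPM, Ly6c1 at 2239.9 and 2223 against 1674 and 1614 CPM and Ly6e at 2661 and 2597 against 2308 and 2315 CPM. Both alendronate libraries lay above both adult libraries for each gene, a separation that was not counted over all genes. The log2 fold changes were 0.60 (SE 0.0489, adjusted p = 3.40e-06), 0.44 (SE 0.0532, adjusted p = 7.67e-05) and 0.19 (SE 0.0362, adjusted p = 0.00265) by edgeR, so that 3 of 3 members were called, where 22.6% of genes were. Within types alendronate Ly6a was at 958 and 976 CPM in sinusoidal, 4838 and 4954 in arterial, 2721 and 2644 in metaphyseal and 5423 and 5019 in type R cells, above the adult pair in each. Its log2 fold changes were 0.35 (SE 0.0462, adjusted p = 3.49e-05) in sinusoidal, 0.15 (SE 0.0726, adjusted p = 0.389) in arterial, 0.53 (SE 0.0547, adjusted p = 1.06e-06) in metaphyseal and 0.44 (SE 0.1004, adjusted p = 0.0212) in type R cells by edgeR. Ly6c1 was at 367 and 391 CPM in sinusoidal, 5204 and 5248 in arterial, 3111 and 2955 in metaphyseal and 6861 and 6971 in type R cells. None of its changes, 0.03 to 0.15 on the log2 scale, passed edgeR's test in a type with all libraries. In metaphyseal cells it passed without PTH library 1 or 2 (0.15 in both cases) and with thinning before gating (0.20), and its sign turned with stricter type gates (-0.0599). In type R cells it passed with thinning (0.32). Ly6e was at 2446 and 2408 CPM in sinusoidal, 3239 and 3124 in arterial, 2652 and 2778 in metaphyseal and 3514 and 3384 in type R cells. It rose by 0.48 (SE 0.112, adjusted p = 0.0274) in type R and 0.17 (SE 0.0357, adjusted p = 0.00371) in sinusoidal cells, and its 0.08 in arterial and 0.12 in metaphyseal cells did not pass. Called were 2 members in sinusoidal cells, where 11.4% of genes were, 1 in metaphyseal cells (9.01%), 2 in type R cells (1.13%) and none in arterial cells (1.65%; 1 member had an unadjusted p under 0.05 by edgeR, and DESeq2 called none either). Both type R calls ended when any 1 adult or alendronate library was left out, that of Ly6e also without PTH library 2, with log2 fold changes of 0.35 to 0.53 for Ly6a and 0.38 to 0.59 for Ly6e. The sinusoidal Ly6e call ended without alendronate library 1 (0.15), and the 7 type R check markers summed to 17749.5 to 18284 CPM in these sinusoidal cells, against 24444 to 24918 CPM in adult ones. Their part was not tested. The effect of alendronate on Ly6e in type R cells exceeded that in the other types by 0.41 (SE 0.0918, adjusted p = 0.0196), where 0.528% of genes were called by edgeR. This call ended without adult library 2, alendronate library 1 or alendronate library 2 (0.30 to 0.44). The differences in sinusoidal, arterial and metaphyseal cells were not called for any member (0.389%, 0.0777% and 0.824% of genes). Over the 12 tests of this kind 3 had an unadjusted p under 0.05 by edgeR, and DESeq2 called the same 1. That of Ly6a in arterial cells passed with no filter, thinning or cells holding RNA of other types left out (-0.30 to -0.27), that of Ly6e in metaphyseal cells with stricter type gates (-0.28) and that of Ly6c1 in type R cells with thinning (0.34).

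Set against each other, the 2 treatments differed most in Sca-1. Over all gated cells the log2 differences, PTH minus alendronate, were -0.54 (SE 0.0489, adjusted p = 5.26e-06) for Ly6a, -0.30 (SE 0.0363, adjusted p = 6.51e-05) for Ly6e and -0.13 (SE 0.0531, adjusted p = 0.0894) for Ly6c1 by edgeR. Thus 2 of 3 members were called, where 26.6% of genes were. Within types Ly6a gave -0.62 (SE 0.0474, adjusted p = 7.57e-08) in sinusoidal, -0.46 (SE 0.0727, adjusted p = 0.000624) in arterial, -0.97 (SE 0.0549, adjusted p = 2.23e-10) in metaphyseal and -0.59 (SE 0.101, adjusted p = 0.00182) in type R cells. Every member was called lower under PTH in arterial cells, where 2.72% of genes were called, in metaphyseal cells (11.3%) and in type R cells (0.903%), and Ly6a and Ly6e in sinusoidal cells (10.1%). The 7 type R check markers summed to 4772 to 5494 CPM under PTH against 8711 to 9318 CPM under alendronate in arterial cells, and to 6332 to 6635 against 11565 to 12746 CPM in metaphyseal cells. In type R cells the 6 metaphyseal check markers summed to 1305 to 1542 against 939.7 to 953 CPM, and the part of these markers was not tested. The type R calls ended without PTH library 1, alendronate library 1 or alendronate library 2 for each member. They also ended for Ly6c1 and Ly6e without an adult library and for Ly6e without PTH library 2 (-0.65 to -0.27 over the members). With thinning before gating (-0.17), cells holding RNA of other types left out (-0.31) or the replicate block (-0.37) that of Ly6c1 ended, and with stricter type gates that of Ly6e (-0.41). In arterial cells that of Ly6c1 ended without PTH library 1 or either alendronate library (-0.45 to -0.36) and that of Ly6e without alendronate library 1 (-0.39). Ly6c1 passed over all gated cells without PTH library 2 (-0.24), and with DESeq2, a stricter endothelial gate, thinning before gating or cells holding RNA of other types left out (-0.21 to -0.14). In sinusoidal cells it passed without an aged library (-0.18), and with DESeq2 size factors, no filter, a stricter endothelial gate or cells holding RNA of other types left out (-0.23 to -0.19). The Ly6a difference in metaphyseal cells, less that in the other types, was -0.38 (SE 0.0821, adjusted p = 0.00720), with 1.36% of genes called by edgeR. This ended without PTH library 1 or either alendronate library (-0.40 to -0.36) and with stricter type gates (-0.24). The sinusoidal (1.94% of genes called), arterial (0.288%) and type R (0.443%) differences were not called for any member by edgeR or DESeq2, with an unadjusted p under 0.05 by edgeR in 5 of the 12 tests in all. The sinusoidal ones of Ly6c1 and Ly6e passed with no filter (0.26 and 0.25) and without PTH library 2 (0.43 and 0.42), and the arterial one of Ly6a with no filter, stricter type gates or cells holding RNA of other types left out (0.28 to 0.32).

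The groups also differed in their mix of types. Sinusoidal cells made up 47.5 and 46.7% of gated cells in juvenile, 39.6 and 39.6% in adult, 17.4 and 17.1% in aged, 22.7 and 19.9% in PTH and 33.4 and 32.3% in alendronate libraries. Arterial cells went from 3.28 and 3.75% in juvenile to 7.18 and 6.97% in adult and 16.8 and 15.7% in aged libraries, and metaphyseal cells were most frequent under PTH, at 29.6 and 29.3%. To describe the mix, each group's level was computed from its own shares, in plain CPM. Every type, and the cells that passed several gates or none, was held at its adult mean. The values stand side by side, and the part of the mix was not tested. For juvenile Ly6a the mix gave a log2 change of -0.18 against adult, where -1.41 was measured, and for Ly6c1 it gave -0.22, where -0.92 was measured. Under PTH the mix gave 0.42 for Ly6c1 and 0.29 for Ly6a, where 0.36 and 0.10 were measured. Under alendronate it gave 0.23 for Ly6a, where 0.59 was measured, and 0.28 for Ly6c1, where 0.43 was measured. In aged bone it gave 0.47 for Ly6a and 0.60 for Ly6c1, where 0.40 and 0.25 were measured. For Ly6e, whose level differs little between types, the mix gave -0.01 to 0.08 in every group.

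**Figure D4:**
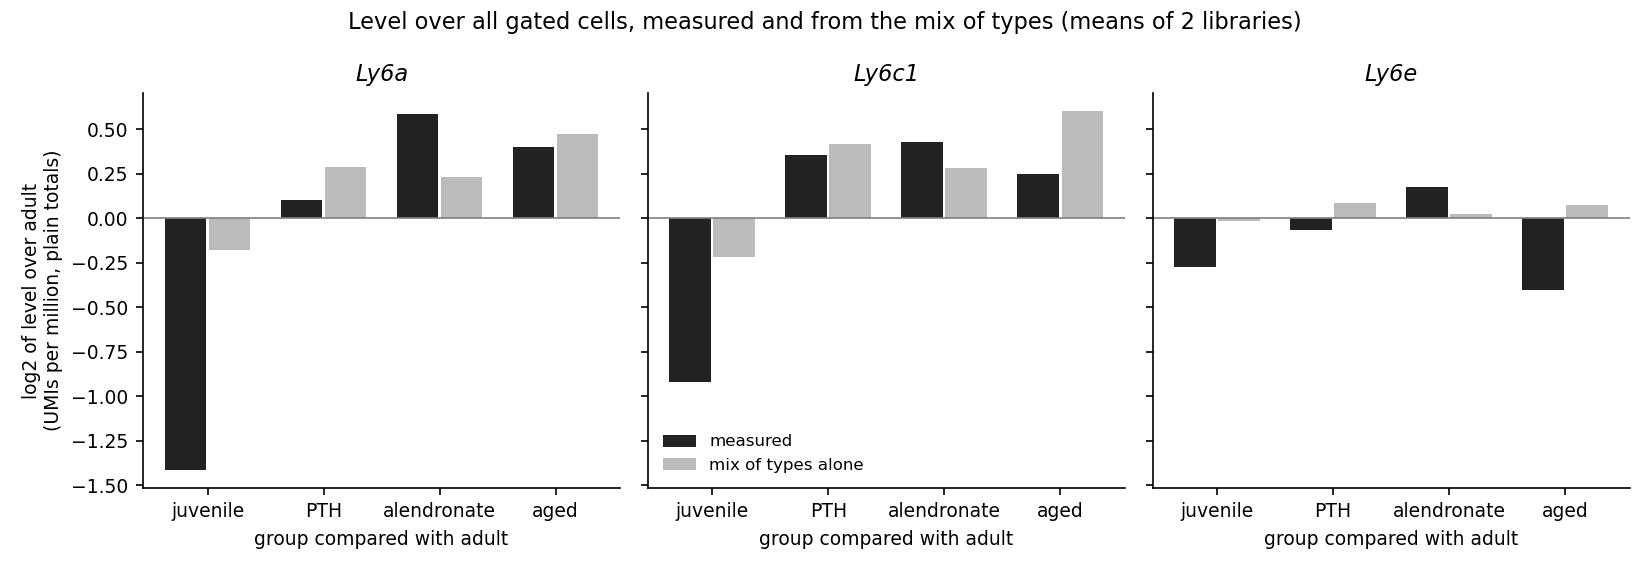
Log2 change of Ly6a, Ly6c1 and Ly6e against the adult mean over all gated cells (plain CPM), dark bars as measured and grey bars as computed from each group's mix of types with every type held at its adult level. In juvenile bone the measured change of Ly6a (-1.41) lies far below that from the mix (-0.18), and under PTH both values of Ly6c1 (0.36 and 0.42) lie close together.

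The members were set beside the rest of the Ly6/uPAR family, of which 36 of 48 listed genes had a UMI and 10 were tested between types. Gpihbp1, which carries lipoprotein lipase across capillary endothelium, was at a median of 814 CPM in sinusoidal, 797 in arterial, 2185 in metaphyseal and 2218 in type R cells, and was called higher in type R cells (1.04, SE 0.0868, edgeR adjusted p = 6.56e-13). Cd59a, which blocks the last step of complement, was called higher in type R cells as well (1.20, SE 0.152). Ly6g6e (3.94, SE 0.216) and Ly6g6d (1.08, SE 0.131) were called higher in sinusoidal cells, the opposite of Ly6a and Ly6c1, at medians of 13.5 and 24.9 CPM there. Ly6g6e was called lower in arterial (-1.80) and type R cells (-2.33), and Ly6g6d in type R cells (-1.61). Ly6c2, the near copy of Ly6c1, was not called in any type, with differences of -0.17 to 0.20 and mean levels of 22.0 to 29.0 CPM in the 4 types, against 61.0 CPM over all gated cells. In cells that passed no gate, which held more blood cell RNA, its mean was 252 plain CPM. Plaur, the urokinase receptor, and Ly6d, a lymphoid marker, were not called either. Members included, 2 genes of the list were called higher and 2 lower of 10 in sinusoidal cells, 2 and 1 in arterial cells, none in metaphyseal cells and 4 and 2 in type R cells. Of all genes 8.52% were called higher and 8.16% lower in sinusoidal, 5.36% and 5.39% in arterial, 4.13% and 2.23% in metaphyseal and 5.33% and 7.53% in type R cells. Over all gated cells, with 21 of the list tested, 5 were higher and 8 lower in juvenile against adult bone (median log2 -0.22, all genes -0.01), 1 and 11 in aged (-0.55, all genes 0.00), 2 and 4 under PTH and 4 and 2 under alendronate, by edgeR. Of all genes 20.5% were called higher and 20.7% lower in juvenile, 36.3% and 36.5% in aged, 13.3% and 12.6% under PTH and 12.2% and 10.5% under alendronate. Under alendronate Gpihbp1 fell by 0.34 (SE 0.0377) over all gated cells, where Sca-1 rose, and in juvenile bone it gave -0.03, which did not pass. Ly6c2 over all gated cells was at 15.1 and 13.6 CPM in juvenile, 93.2 and 88.01 CPM in adult, 47.5 and 24.2 CPM in aged and 57.4 and 28.9 CPM in PTH libraries 1 and 2. Each of the juvenile, aged and PTH libraries lay below the adult pair, and both alendronate libraries, at 107 and 135 CPM, lay above it. The 2 aged and the 2 PTH libraries also lay far from each other. Ly6d had 385 and 594 UMIs in adult libraries but 1 and 0 in PTH libraries, where the haematopoietic list summed to 454 and 315 CPM over all gated cells, against 592 and 792 CPM in the adult libraries. Whether these move together was not tested.

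Since interferons can raise Ly6a and Ly6e, a list of 42 interferon-stimulated genes that holds no Ly6 gene was read in the same tests. In juvenile bone 39 of 40 genes tested were lower over all gated cells and none higher, with a median log2 fold change of -1.03 where the median of all genes was -0.01 and 20.7% of genes were called lower. Cxcl9, a chemokine that interferon gamma induces, was at 11.2 ± 1.70 CPM in juvenile against 99.2 ± 5.85 CPM in adult libraries (SD, n = 2), a change of -3.14 (SE 0.124, edgeR adjusted p = 8.60e-10), with Ifi27l2a at -3.21 and Cxcl10 at -2.05. Within types 34 of 39 were lower in sinusoidal, 29 of 37 in arterial, 35 of 39 in metaphyseal and 8 of 34 in type R cells, and none higher, where 16.3%, 4.18%, 10.7% and 1.25% of all genes were called lower. In aged bone 25 of 40 were higher and 8 lower (median 0.45, all genes 0.00; of all genes 36.3% higher and 36.5% lower), among them the GTPases Gbp4 (2.25) and Gbp7 (1.30) and Cxcl9 (1.72). In the same sums Ly6e fell, and Ly6a and Ly6c1 did not pass. Under PTH 2 were higher and 20 lower of 40 (median -0.20, all genes 0.00; of all genes 13.3% higher and 12.6% lower), with Cxcl9 at -1.24, Cxcl10 at -0.96 and Rsad2, an antiviral enzyme, at 0.69. Under alendronate 14 were higher and 2 lower of 40 (median 0.12, all genes 0.00; of all genes 12.2% higher and 10.5% lower), with Ifi27l2a at 1.81, Ifit1 at 0.69 and Cxcl9 at -0.71. Between types 14 of 39 were lower (8.16% of all genes) and 2 higher (8.52%) in sinusoidal cells, with Rsad2 at -2.56, Ifi27l2a at -2.51 and Ifit1 at -2.35, and 11 were higher (5.33%) and 1 lower (7.53%) in type R cells, with Ifi27l2a at 3.33, Gbp5 at 1.65 and Ifit1 at 1.64. In arterial cells 1 was higher (5.36%) and 2 lower (5.39%), and in metaphyseal cells 2 were higher (4.13%), the latter with Rsad2 at 1.52. The comparisons against adult bone share the adult libraries. Whether the members and this list move together, or through interferon, was not tested. Of 7 interferon receptor and kinase genes, Jak1 (2.19) and Jak2 (1.60) were higher in sinusoidal cells. Jak1 was lower in arterial cells (-1.001), Ifngr2 was higher in metaphyseal (1.04) and lower in type R cells (-1.01), and Jak2 was higher in juvenile bone (0.98 over all gated cells). Of 29 genes that build or attach the GPI anchor, 24 were tested between types and 1, Pigm, was called, higher in sinusoidal cells (1.27), where 8.52% of all genes were. Over all gated cells all 29 were tested, and 3 were higher and 7 lower in juvenile (41.2% of all genes called), 7 and 15 in aged (72.8%), 1 and 6 in PTH (25.9%) and 0 and 5 in alendronate bone (22.6%).

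**Figure D5:**
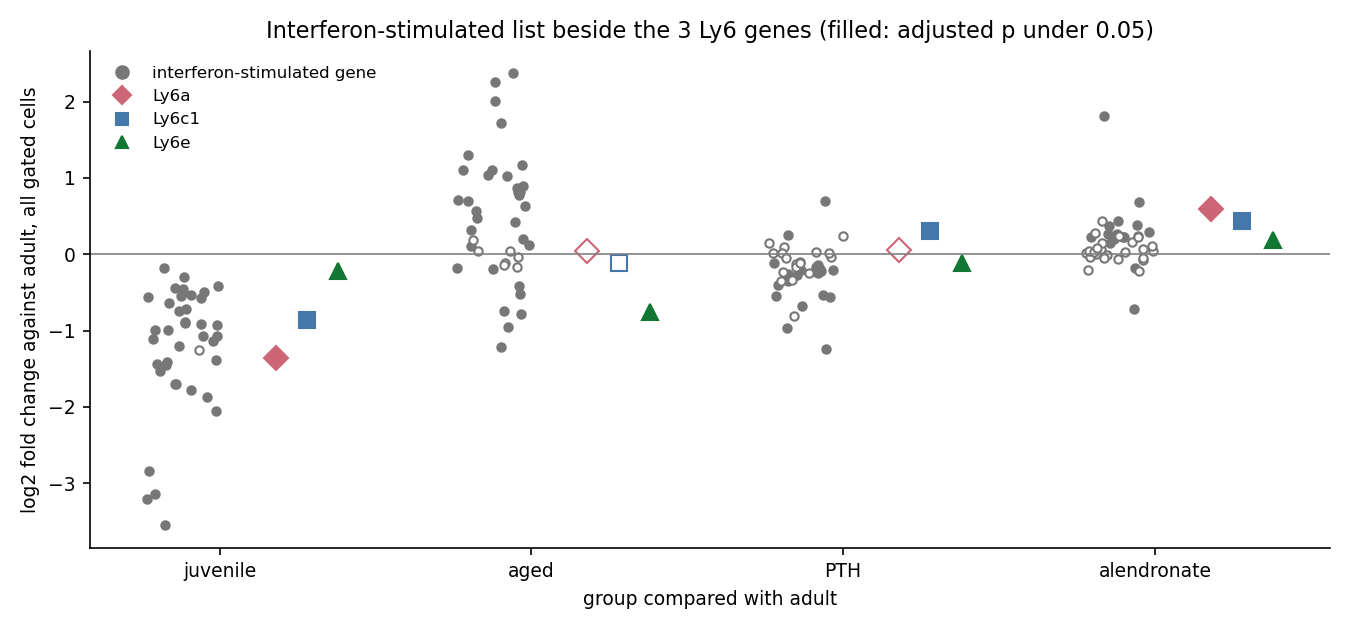
Log2 fold change (edgeR, over all gated cells) of each tested gene of the interferon-stimulated list in juvenile, aged, PTH and alendronate bone against adult bone, 1 point per gene and larger markers for Ly6a, Ly6c1 and Ly6e; filled points passed an adjusted p of 0.05. The juvenile points lie below 0 around a median of -1.03, and the aged points lie mostly above 0 around a median of 0.45.

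Genes most like each member were named by the Pearson correlation of log2 CPM over the 40 sums of type and library, among 6670 genes with a mean of at least 20 CPM, as a description of sums that share libraries and types. For Ly6a they were Mall (0.9505), Ptplad2 (0.944) and Podxl (0.941), the last a sialomucin of the luminal surface with a mean of 58.6 CPM in sinusoidal and 915 CPM in arterial cells. For Ly6c1 they were Cdh13 (0.971), the GPI-anchored T-cadherin with 7.32 CPM in sinusoidal and 480 CPM in type R cells, Ptp4a3 (0.971) and AU021092 (0.967). For Ly6e they were Bbip1 (0.888), the interferon-induced Ifitm3 (0.862) and the early response gene Ier2 (0.855). Between members the correlation was 0.90 for Ly6a and Ly6c1, 0.65 for Ly6a and Ly6e and 0.58 for Ly6c1 and Ly6e.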

How the data were processed

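Per the labels, the authors sequenced the 10x libraries on a NextSeq 500, and the submitters' processing notes name UMI-tools 1.1.2, STAR 2.7.10a, Subread featureCounts 2.0.3 and mm10. The deposited values are UMI counts per gene and cell, which the authors did not normalize; annotation release, strand setting and kit version per library are not given in the sources used here. Genes whose names begin with U had UMIs only in the aged libraries (267 and 265 genes, 1.52 and 1.53% of UMIs) and were left out.

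Cells were gated at 500 to 6000 genes, under 25% mitochondrial UMIs and at least 2 endothelial UMIs. A type needed at least 2 UMIs of its own gate and at most 1 of any other, except that type R cells could hold any number of Ramp3 and Aplnr UMIs. Counts were summed per type and library over at least 20 cells and tested with edgeR 4.0.16 (R 4.3.3; filterByExpr, TMM, quasi-likelihood test, Benjamini-Hochberg adjustment over all genes tested), with a library block between types and all groups in 1 fit otherwise. DESeq2 1.42.0 was an alternative, and the others are named with the processing limits. Stricter type gates needed 3 UMIs of the own gate and allowed no UMI of another, Ramp3 and Aplnr in type R cells excepted. Cells holding RNA of other types were those with a Ptprc UMI, over 1% erythroid UMIs or UMI totals in the top 5%. The members and gene lists were chosen with earlier results of these data known. Named list genes were those called with the 3 largest changes at a mean of at least 20 CPM. On simulated data 198 of 200 genes changed 4-fold were recovered for arterial against the other types, and of 200 changed 2-fold in aged against adult bone 146 over all gated cells, 138 in sinusoidal, 117 in arterial, 126 in metaphyseal and 81 in type R cells. Of 200 genes changed 2-fold only in aged arterial cells, 75 were recovered by the test of the difference between types. Single cells were handled with Python 3.11.15, numpy 2.4.6 and scipy 1.17.1. Start regions came from RefSeq and positions from GENCODE M21; 26 of 48 family genes had a start region.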

Additional observations from a re-analysis of the deposited data

Results flagged for a closer look

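8 differences between types in the response of a member passed edgeR's test of the difference itself, each given as the log2 change in 1 type less the mean of the other 3. In juvenile against adult bone Ly6a gave -0.78 (SE 0.0865, adjusted p = 7.71e-08) in sinusoidal and 1.099 (SE 0.0863, adjusted p = 2.43e-11) in arterial cells by edgeR. Ly6c1 gave -1.17 (SE 0.0965, adjusted p = 8.21e-11) in sinusoidal, 0.73 (SE 0.0938, adjusted p = 3.66e-06) in arterial, -0.47 (SE 0.0931, adjusted p = 0.00209) in metaphyseal and 0.91 (SE 0.0996, adjusted p = 3.80e-07) in type R cells by edgeR. The juvenile libraries held both sexes and 41 and 24 type R cells, and sex and age cannot be told apart there. Without adult library 1 the metaphyseal value of Ly6c1 was -0.46 and was no longer called (edgeR adjusted p = 0.0583).

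Under alendronate Ly6e gave 0.41 (SE 0.0918, adjusted p = 0.0196) in type R cells, and PTH against alendronate Ly6a gave -0.38 (SE 0.0821, adjusted p = 0.00720) in metaphyseal cells, both by edgeR. The first was no longer called without adult library 2 (0.30, adjusted p = 0.592), alendronate library 1 (0.39, 0.283) or alendronate library 2 (0.44, 0.118) by edgeR. The second was no longer called without PTH library 1 (-0.36, 0.0535), alendronate library 1 (-0.37, 0.126) or alendronate library 2 (-0.40, 0.0912), or with stricter type gates (-0.24, 0.109), by edgeR.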

How the results depend on the processing

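Age or treatment effects rest on 2 libraries per group, and type R values on as few as 24 cells. The study describes 1 experiment with pooled mice for each group, so the 2 libraries may share a pool. Type differences of Ly6a and Ly6c1 between sinusoidal cells and each other type, and the juvenile fall of Ly6a in sinusoidal, metaphyseal and type R cells, kept direction and call under every alternative run. Stricter type gates and thinning left juvenile library 2 and PTH library 1 with under 20 type R cells, so type R values there rest on 1 juvenile and 1 PTH library. Values are log2 changes against adult bone unless named otherwise. With DESeq2 calls lost were Ly6c1 arterial against metaphyseal (0.98), Ly6a juvenile, arterial cells (-0.24), and calls gained were Ly6a metaphyseal against type R (-1.01), Ly6c1 PTH against alendronate, all cells (-0.15). With DESeq2 size factors calls lost were Ly6c1 arterial against metaphyseal (0.98), and calls gained were Ly6a metaphyseal against type R (-1.01), Ly6c1 PTH against alendronate, sinusoidal cells (-0.20). With no filter on low counts calls lost were Ly6a type R against the others (0.96), Ly6c1 arterial against metaphyseal (0.98), Ly6e PTH, all cells (-0.11), and calls gained were Ly6c1 aged, all cells (-0.20), Ly6c1 PTH against alendronate, sinusoidal cells (-0.20), Ly6e juvenile, arterial cells (-0.23), Ly6a aged, metaphyseal cells (-0.15), and signs turned for Ly6a aged, all cells (-0.0482). With stricter type gates (3 UMIs) calls lost were Ly6e PTH, arterial cells (-0.24), Ly6e PTH against alendronate, type R cells (-0.41), Ly6a PTH against alendronate, metaphyseal less the other types (-0.24), and calls gained were Ly6a metaphyseal against type R (-1.07), Ly6c1 juvenile, arterial cells (0.30), and signs turned for Ly6e PTH, sinusoidal cells (0.00112), Ly6c1 alendronate, metaphyseal cells (-0.0599). With a stricter endothelial gate (4 UMIs) calls gained were Ly6c1 PTH against alendronate, all cells (-0.14), Ly6c1 PTH against alendronate, sinusoidal cells (-0.19). With cells thinned to 2000 UMIs before gating calls lost were Ly6c1 PTH, metaphyseal cells (-0.16), Ly6c1 PTH against alendronate, type R cells (-0.17), and calls gained were Ly6a metaphyseal against type R (-1.15), Ly6a aged, all cells (0.15), Ly6c1 PTH against alendronate, all cells (-0.21), Ly6e juvenile, sinusoidal cells (-0.14), Ly6a aged, metaphyseal cells (-0.50), Ly6c1 alendronate, metaphyseal cells (0.20), Ly6c1 alendronate, type R cells (0.32), and signs turned for Ly6c1 aged, all cells (0.0873), Ly6c1 PTH, type R cells (0.15). With cells holding RNA of other types left out calls lost were Ly6a type R against the others (1.00), Ly6c1 arterial against metaphyseal (0.99), Ly6e PTH, all cells (-0.0987), Ly6c1 PTH against alendronate, type R cells (-0.31), and calls gained were Ly6c1 PTH against alendronate, all cells (-0.19), Ly6e juvenile, sinusoidal cells (-0.10), Ly6c1 PTH against alendronate, sinusoidal cells (-0.23), Ly6a aged, metaphyseal cells (-0.16). With the replicate number as a block calls lost were Ly6a juvenile, arterial cells (-0.26), Ly6c1 juvenile, type R cells (0.38), Ly6c1 PTH against alendronate, type R cells (-0.37). With plain totals, chosen after seeing the data, calls lost were Ly6c1 arterial against metaphyseal (0.97), Ly6e PTH, all cells (-0.0644), and calls gained were Ly6a aged, all cells (0.40), Ly6e juvenile, sinusoidal cells (-0.1000), and signs turned for Ly6c1 aged, all cells (0.25), Ly6a aged, sinusoidal cells (0.16), Ly6a aged, metaphyseal cells (0.0612), Ly6e PTH, type R cells (-0.00273). The replicate numbers share only a number (same-numbered libraries correlated at -0.35 to 0.25 in their deviations over 10 pairs), and the block changed 0 of 15 calls over all gated cells and 3 of 60 within types. Of the differences between types in the response of a member that edgeR did not call, DESeq2 called those of Ly6e in juvenile metaphyseal cells (-0.33) and Ly6a in aged arterial cells (-0.27), and those that passed under another setting are given with each comparison.

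At 2000 UMIs per cell the median shares of cells with a UMI were 98.2, 84.2, 62.6 and 97.5% for Ly6a, 98.7, 91.6, 38.4 and 99.6% for Ly6c1 and 98.7, 96.6, 96.1 and 98.9% for Ly6e in arterial, metaphyseal, sinusoidal and type R cells. Counts of called genes moved by over 1.5 times with no filter (1844 to 3430 sinusoidal, 1189 to 1937 arterial and 704 to 1275 metaphyseal against the others), with DESeq2 (4168 to 2519 for PTH, 3641 to 2021 for alendronate and 4283 to 2516 for PTH against alendronate, all gated cells) and with thinning (4283 to 2794 for the last); of 20 comparisons within types, 12 did with DESeq2, 10 with thinning and 13 with stricter type gates, 10 and 12 without adult library 1 or 2, 9 without either alendronate library, 7 and 6 without PTH library 1 or 2, 3 without either juvenile and 1 without either aged library. Over all gated cells, leaving out an adult or alendronate library took the alendronate count from 3641 to between 2057 and 2367. The PTH count went from 4168 to 2734 without adult library 2. That of PTH against alendronate went from 4283 to 2814 without PTH library 2. Within types the count fell furthest for PTH type R cells (124 to 17 without adult library 1), PTH against alendronate type R cells (65 to 11 without alendronate library 1) and alendronate arterial cells (176 to 39 without adult library 2). The shares of genes called in all these comparisons are uncertain.

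With 1 library left out, a lone library being assumed to vary like the others, calls or signs changed in these results, given as lowest to highest log2 value: Ly6a PTH, all cells -0.0539 to 0.15, Ly6a PTH, arterial cells -0.38 to -0.23, Ly6a PTH against alendronate, type R cells -0.68 to -0.54, Ly6a aged, metaphyseal cells -0.12 to -0.0794, Ly6a aged, type R cells -0.29 to -0.11, Ly6a alendronate, type R cells 0.35 to 0.53, Ly6a juvenile, arterial cells -0.34 to -0.20, Ly6a type R against the others 0.99 to 1.06, Ly6c1 PTH, arterial cells -0.51 to -0.30, Ly6c1 PTH, type R cells -0.41 to -0.10, Ly6c1 PTH against alendronate, all cells -0.24 to -0.0352, Ly6c1 PTH against alendronate, arterial cells -0.57 to -0.36, Ly6c1 PTH against alendronate, sinusoidal cells -0.23 to -0.14, Ly6c1 PTH against alendronate, type R cells -0.54 to -0.27, Ly6c1 aged, all cells -0.16 to -0.0877, Ly6c1 alendronate, metaphyseal cells 0.11 to 0.19, Ly6c1 alendronate, sinusoidal cells -0.0145 to 0.0710, Ly6c1 juvenile, arterial cells -0.0427 to 0.35, Ly6c1 juvenile, type R cells 0.21 to 0.44, Ly6e PTH, all cells -0.18 to -0.0535, Ly6e PTH, arterial cells -0.48 to -0.21, Ly6e PTH, type R cells -0.16 to 0.12, Ly6e PTH against alendronate, arterial cells -0.57 to -0.29, Ly6e PTH against alendronate, type R cells -0.62 to -0.38, Ly6e aged, type R cells -0.59 to -0.38, Ly6e alendronate, sinusoidal cells 0.15 to 0.19, Ly6e alendronate, type R cells 0.38 to 0.59, Ly6e juvenile, arterial cells -0.29 to -0.14. The sign of the uncalled Ly6e value in PTH type R cells turned without adult library 2, aged library 1 or 2, PTH library 2 or alendronate library 1, and that of Ly6c1 in alendronate sinusoidal cells without adult library 1 or alendronate library 2.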
